A study of Mus musculus with 18 samples.

Results

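The 6 genes of lipolysis described here were followed through muscle and fat: the 3 lipases Pnpla2, Lipe and Mgll, the lipase co-activator Abhd5, and the 2 small lipase inhibitors G0s2 and Hilpda. They were chosen by name, for their role in the pathway, with earlier results of these data known. They are 6 of the 53465 genes in the deposited counts. All 6 passed the filter on low counts in every comparison.

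Lipolysis releases fatty acids from the triglyceride of lipid droplets in steps. Pnpla2 (ATGL) removes the first fatty acid and is switched on by Abhd5 (CGI-58), Lipe (HSL) acts mainly on the diglyceride that is left, and Mgll hydrolyses the monoglyceride. G0s2 and Hilpda bind Pnpla2 and inhibit it; Hilpda is also known as a target of hypoxia signalling and of fatty acids. White fat uses the pathway to feed other organs, brown fat to fuel heat production, and muscle to draw on its own droplets.

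RNA was sequenced from skeletal muscle (SKM), white adipose tissue (WAT) and brown adipose tissue (BAT) of wild type C57BL/6J mice. One arm received quercetin, a plant flavonol, at 0.125 mg/kg by gavage in 10% PEG400, and the other arm PEG400 alone. With 3 libraries, numbered 1 to 3 in the labels, for every tissue and arm, there were 6 groups and 18 libraries. Neither the fat depot and muscle sampled nor the age and sex of the mice behind these libraries is stated in the sources used here. Total gene counts ran from 8436308 to 12311345 per library. Libraries are named by tissue, arm and number, as in muscle vehicle 1. The sample titles repeat arm and number in each tissue, so the tissues may come from the same mice. No label says which libraries came from the same animal, and p-values measure the spread between libraries. The main tests between tissues take libraries as unpaired.

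Several libraries stood apart in the markers of cell types, given as summed CPM (counts relative to library size, with TMM scaling over all 18 libraries). The 6 adipocyte markers summed to 51.3 to 5662 CPM in muscle, 256 to 16753 CPM in white fat and 4449 to 10958 CPM in brown fat, and no adipocyte marker was at 0 in any library. Muscle vehicle 3 (5662 CPM) and muscle quercetin 2 (2261 CPM) held the most adipocyte RNA among the muscle libraries, and the latter also held 25038 CPM of seminal vesicle transcripts. White fat vehicle 2 had the lowest adipocyte sum of its tissue (256 CPM) and the highest muscle sum (965 CPM). B cell markers summed to 425 to 2438 CPM in 4 white fat libraries and to 0.981 and 2.55 CPM in white fat vehicle 1 and quercetin 2, the 2 white fat libraries from flow cell H7GKJDSXX; muscle quercetin 3 came from that flow cell too, and all others from H7H2WDSXX. Ucp1, the uncoupling protein of brown fat, stood at 3735 to 4745 CPM in 5 brown fat libraries and at 894 CPM in brown fat quercetin 3, which also held 29131 CPM of muscle fibre transcripts. Muscle quercetin 2 held 280 CPM of Ucp1, and no other muscle library held more than 0.699 CPM. In bulk tissue, fewer cells of a type and less RNA per cell cannot be told apart.

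In the mouse genome (GRCm38, GENCODE annotation), Pnpla2 lies at chr7:141455198-141460743 and Lipe, on the opposite strand, at chr7:25379527-25398710. Mgll lies at chr6:88724412-88828360, Hilpda at chr6:29272488-29275446, Abhd5 at chr9:122351608-122381524 and G0s2 at chr1:193272161-193273217. The exons of each gene join to 3020 bases for Pnpla2, 5886 for Lipe, 5077 for Mgll, 5956 for Abhd5, 871 for G0s2 and 1103 for Hilpda. An antisense gene overlaps 15.6% of the exon bases of Lipe, 16% of those of Abhd5 and 3.29% of those of Mgll. Without a stated strand setting, reads from those stretches cannot be told apart; G0s2 lies within the span of Lamb3 but shares no exon base with it.

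The 250 bases before the start site are shown for Pnpla2 and Lipe, whose ratio differed most between tissues among those tested, and for both inhibitors. The sequences are from RefSeq (GRCm38.p6), which held a promoter for all 6 genes. They are written 5′ to 3′ on the gene's own strand, for Pnpla2 at chr7:141454938-141455187 (+), for 2 start sites of Lipe at chr7:25395988-25396237 (-) and chr7:25390113-25390362 (-), for G0s2 at chr1:193273189-193273438 (-) and for the second Hilpda start at chr6:29272376-29272625 (+). Capitals mark matches, on either strand, to the hypoxia response core ACGTG, the cyclic AMP response core TGACG or the FoxO site GTAAACA; adjoining matches merge, so that CACGTG is ACGTG read on both strands.
Pnpla2: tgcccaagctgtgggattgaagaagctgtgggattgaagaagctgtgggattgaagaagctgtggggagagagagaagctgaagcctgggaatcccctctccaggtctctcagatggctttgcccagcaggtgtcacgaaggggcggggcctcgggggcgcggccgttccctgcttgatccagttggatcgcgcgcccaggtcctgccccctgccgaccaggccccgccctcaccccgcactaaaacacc
Lipe, first start: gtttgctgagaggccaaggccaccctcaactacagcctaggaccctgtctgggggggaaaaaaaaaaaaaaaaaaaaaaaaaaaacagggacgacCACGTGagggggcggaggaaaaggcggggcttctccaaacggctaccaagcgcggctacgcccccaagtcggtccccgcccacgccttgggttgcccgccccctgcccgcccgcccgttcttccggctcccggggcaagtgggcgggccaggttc
Lipe, second start: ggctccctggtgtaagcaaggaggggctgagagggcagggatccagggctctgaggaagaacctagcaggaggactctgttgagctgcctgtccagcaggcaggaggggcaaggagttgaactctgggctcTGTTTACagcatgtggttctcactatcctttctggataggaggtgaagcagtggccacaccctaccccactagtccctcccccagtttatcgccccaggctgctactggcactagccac
G0s2: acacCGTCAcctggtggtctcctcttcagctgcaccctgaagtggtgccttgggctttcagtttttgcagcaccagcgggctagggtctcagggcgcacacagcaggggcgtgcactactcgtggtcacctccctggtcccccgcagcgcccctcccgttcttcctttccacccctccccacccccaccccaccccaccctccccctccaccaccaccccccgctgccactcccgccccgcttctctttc
Hilpda, second start: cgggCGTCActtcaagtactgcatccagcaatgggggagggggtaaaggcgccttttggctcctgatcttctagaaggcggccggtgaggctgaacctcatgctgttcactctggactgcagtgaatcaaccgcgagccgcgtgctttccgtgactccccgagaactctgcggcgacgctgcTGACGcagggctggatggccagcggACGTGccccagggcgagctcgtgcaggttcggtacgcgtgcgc

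Over the full 300-base windows, which reach 50 bases past the start, ACGTG was found in 19.6% of 32851 mouse promoters, TGACG in 20.8% and GTAAACA in 3.65%. The window of Pnpla2 held none of them. ACGTG was found at the first Lipe start (154 bases before it), at both Mgll starts (43 and 158 bases before them) and at the second Hilpda start (43 bases before it). TGACG was found at Abhd5 (128 bases before the start), G0s2 (246), both Hilpda starts and the second Mgll start, and GTAAACA at the second Lipe start (119) and the first Mgll start (241). A direct repeat of the PPAR type (AGGTCA, 1 base, AGGTCA) was in no member's window and in 0.0396% of all promoters. These are matches of letters only; binding was not measured.

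Per kilobase of exon, Pnpla2 was the most abundant of the 6 transcripts in 18 of 18 libraries. Its median was 1308 RPKM (CPM per kilobase) in brown fat, 390 RPKM in white fat and 235 RPKM in muscle. G0s2 came second in 15 of 18 libraries, with medians of 642, 137 and 64.5 RPKM in the same order of tissues. Mgll and Lipe followed. Their medians were 201 and 149 RPKM in brown fat, 60.8 and 60.4 RPKM in white fat, and 27.1 and 8.32 RPKM in muscle. Abhd5 and Hilpda took the last place in 17 of 18 libraries, 7 for Abhd5 and 10 for Hilpda, with brown fat medians of 33.9 and 20.5 RPKM. The exception was muscle vehicle 1, where Lipe came last at 3.96 RPKM and Hilpda second at 33.0 RPKM.

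**Figure D1:**
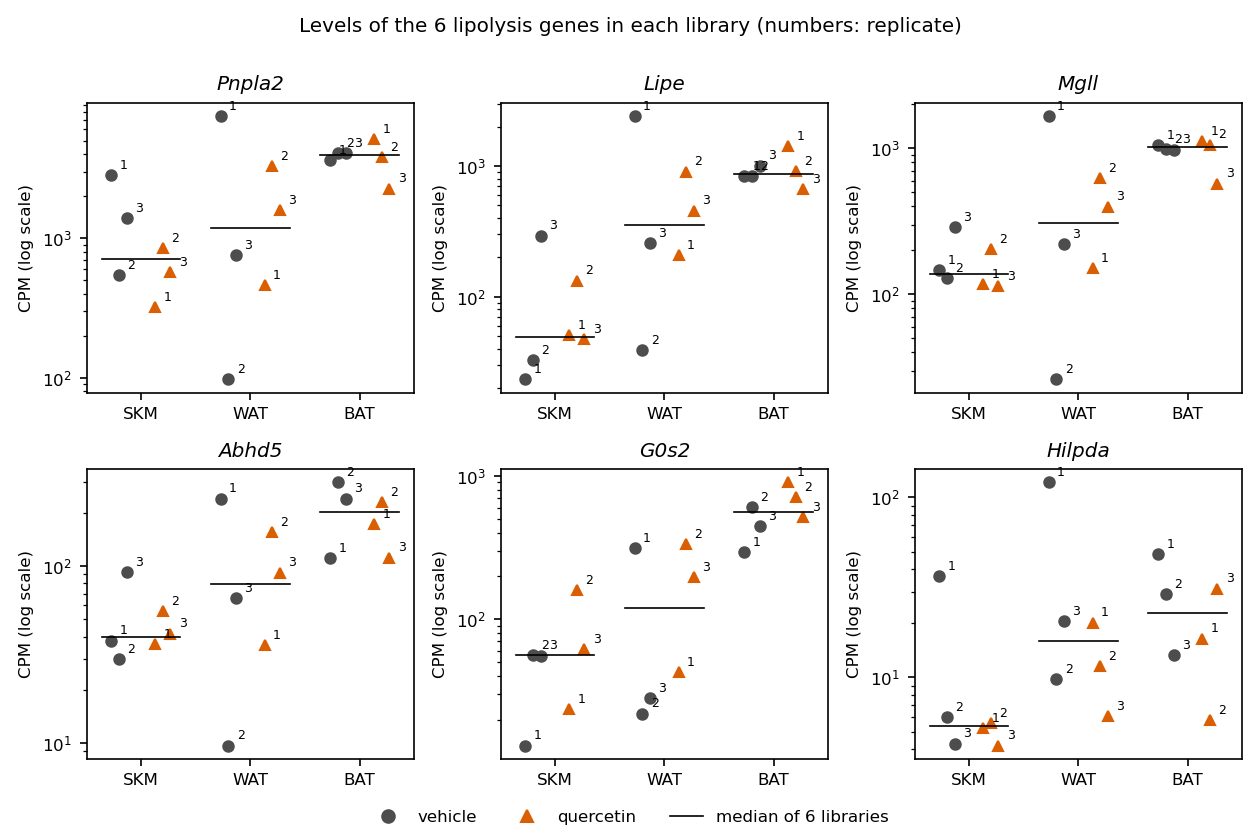
CPM of each gene (log axis, separate scale per gene) in the 18 libraries, by tissue (SKM, WAT, BAT) and arm (circles vehicle, triangles quercetin); small numbers are the replicate and lines the median of the 6 libraries of a tissue. The medians of all 6 genes were lowest in muscle and highest in brown fat, and vehicle library 1 gave the highest Hilpda value in each tissue.

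By median, all 6 genes were highest in brown fat, intermediate in white fat and lowest in muscle. By mean, Hilpda was higher in white fat (31.6 CPM, with vehicle 1 at 121 CPM) than in brown fat (24.0 CPM). Its fitted log2 fold change, brown minus white fat, was -0.12. Between brown and white fat the 6 libraries of each tissue overlapped for every member, and between white fat and muscle as well. Between brown fat and muscle they did not overlap for Lipe, Mgll, Abhd5 and G0s2, against 7.16% of the 16388 genes tested that were higher in brown fat without overlap. The fits below use all 18 libraries, and the fold changes are averages over both arms.

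Of the lipases, Lipe and Mgll were higher in brown fat than in muscle. Lipe ranged from 666 to 1423 CPM in brown fat (median 875 CPM) and from 23.3 to 293 CPM in muscle (median 49.0 CPM). The fitted log2 fold change was 3.32 (SE 0.85, 95% interval 1.51 to 5.13), about 9.99-fold, with an edgeR adjusted p of 0.00935. Mgll ranged from 573 to 1114 CPM in brown fat and from 114 to 287 CPM in muscle, a log2 fold change of 2.54 (SE 0.68, edgeR adjusted p 0.0115). Pnpla2 ranged from 2265 to 5127 CPM in brown fat and from 321 to 2837 CPM in muscle, and only muscle vehicle 1 reached into the brown fat range. Its log2 fold change of 1.996 (interval 0.36 to 3.64) did not pass the threshold of 0.05 with edgeR (adjusted p 0.0671), but did with DESeq2 (1.96, adjusted p 0.0180), with limma voom (2.56, adjusted p 0.000315) and with edgeR and the replicate block (2.45, adjusted p 0.0273).

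The regulators Abhd5 and G0s2 were higher in brown fat than in muscle as well, while Hilpda passed only under some of the fits. Abhd5 ranged from 111 to 298 CPM in brown fat and from 30.0 to 92.7 CPM in muscle, a log2 fold change of 1.98 (SE 0.58, edgeR adjusted p 0.0199). G0s2 ranged from 293 to 900 CPM in brown fat and from 13.2 to 160 CPM in muscle, a log2 fold change of 3.27 (SE 0.73, edgeR adjusted p 0.00418). For Hilpda the ranges were 5.77 to 48.4 CPM and 4.18 to 36.4 CPM, and the log2 fold change of 1.39 had an edgeR adjusted p of 0.137 (DESeq2 0.0978, limma voom with quality weights 0.0199, edgeR with the replicate block 0.0257). In all, 4 of 6 members passed as higher in brown fat and none as lower, beside 13.9% of all genes tested that passed as higher. The median log2 fold change of the members was 2.27 and that of all genes 0.03.

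The call for Abhd5 was lost without muscle vehicle 2, quercetin 1 or quercetin 3 (adjusted p 0.0553, 0.0516 and 0.0508). Hilpda passed without muscle vehicle 1 (2.19, adjusted p 0.0251), and Pnpla2 without white fat vehicle 1 or 2 (adjusted p 0.0173 and 0.0231), which enter the shared estimate of the spread. In the vehicle libraries alone 1 member passed (G0s2), and in the quercetin libraries alone none did, with log2 fold changes of 1.95 to 3.70 for the 4 genes there.

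Between white fat and muscle, Lipe was higher in white fat and was the only member to pass. It ranged from 39.1 to 2410 CPM in white fat, with a log2 fold change of 2.86 (SE 0.83, edgeR adjusted p 0.0105). The estimates of the other 5 ranged from 1.03 for Abhd5 to 1.60 for Mgll, with edgeR adjusted p of 0.0528 to 0.192. That is 1 of 6 members, beside 28.6% of all genes that passed as higher in white fat; the medians were 1.45 for the members and 0.24 for all genes. Estimates differed between the white fat libraries of each flow cell, which also differ in B cell transcripts. Flow cell and cell content cannot be told apart there. Within flow cell H7H2WDSXX, which leaves the 4 white fat libraries with B cell transcripts and leaves out muscle quercetin 3 as well, the Lipe estimate was 1.08 (adjusted p 0.228), no member passed, and Pnpla2 (-0.57), G0s2 (-0.20) and Abhd5 (-0.03) turned to lower estimates in white fat. With white fat vehicle 1 and quercetin 2 as the only white fat, and all muscle libraries, it was 3.97 (adjusted p 0.00468) and all members but Hilpda passed. Without white fat vehicle 1 alone, Lipe gave 1.56 (adjusted p 0.0589) and no member passed; without white fat vehicle 2, 4 passed. The count was 2 without muscle vehicle 1, muscle vehicle 3, white fat vehicle 3 or white fat quercetin 1.

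Between brown and white fat, G0s2 was the only member to pass, at 22.0 to 334 CPM in white fat and a log2 fold change of 1.89 in favour of brown fat (SE 0.69, edgeR adjusted p 0.03997). Beside it, 18.3% of all genes passed as higher in brown fat, and the medians were 0.86 for the members and -0.13 for all genes. The call was lost when any 1 of 8 libraries was left out: white fat vehicle 2 or 3, white fat quercetin 1 or 3, brown fat vehicle 2 or 3, or brown fat quercetin 1 or 2 (adjusted p 0.0611 to 0.0789). Without white fat vehicle 1, 5 members passed. Within flow cell H7H2WDSXX, 5 members passed as higher in brown fat, with log2 fold changes of 2.54 for Pnpla2, 2.11 for Lipe, 2.40 for Mgll, 1.98 for Abhd5 and 3.38 for G0s2. Against white fat vehicle 1 and quercetin 2 only, none passed, and Pnpla2 (-0.38), Lipe (-0.65), Mgll (-0.09) and Abhd5 (-0.02) turned to lower estimates in brown fat. White fat vehicle 1 and quercetin 2 came from flow cell H7GKJDSXX, which held no brown fat library. In that last comparison tissue and flow cell cannot be told apart.

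**Figure D2:**
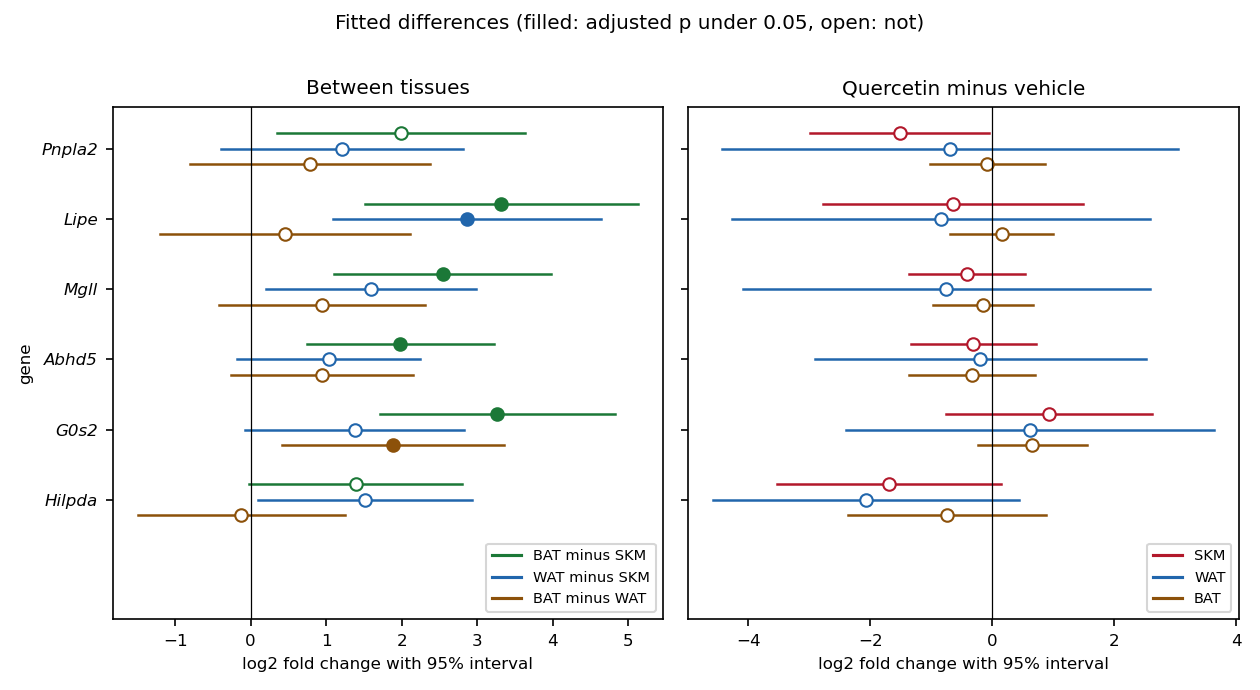
Fitted log2 fold changes (points) with 95% intervals (lines) for the 6 genes, between tissues (left, 18 libraries) and for quercetin minus vehicle within each tissue (right, 6 libraries each); filled points have an edgeR adjusted p under 0.05. For brown fat minus muscle 4 genes are filled, for white fat minus muscle Lipe, for brown minus white fat G0s2, and for quercetin none.

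Ratios within a library do not depend on the scaling between libraries. Among the lipases, Lipe to Pnpla2 and Mgll to Lipe were tested, and both differed between tissues. Both ratios hold Lipe, so their tests are not independent, and Mgll to Pnpla2 was not tested. Per kilobase, Lipe stood at 0.00422, 0.0310 and 0.108 of Pnpla2 in muscle vehicle 1 to 3, and at 0.0813, 0.0802 and 0.0425 in muscle quercetin 1 to 3. In white fat the ratio lay between 0.142 and 0.230, above every muscle library, and in brown fat between 0.105 and 0.151. On the log2 scale the means were -4.65 ± 1.72 in muscle, -2.52 ± 0.27 in white fat and -2.98 ± 0.19 in brown fat (SD, n = 6 each). The 3 differences between tissues had two-sided exact permutation p of 0.00216 (white fat and muscle, the smallest that 924 arrangements allow), 0.00433 (brown fat and muscle) and 0.0108 (brown and white fat), adjusted over 15 ratio tests to 0.0162, 0.0216 and 0.0271.

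Mgll acts after Lipe, and its ratio to Lipe, with Lipe as the lower term, was by mean highest in muscle. Per kilobase Mgll exceeded Lipe in every muscle library, 7.25-fold in muscle vehicle 1 and 4.56-fold in vehicle 2, but only 1.14-fold in vehicle 3. In muscle quercetin 1 to 3 the ratio was 2.67, 1.79 and 2.79. In white fat it lay between 0.774 and 1.01 and in brown fat between 0.908 and 1.47. The adjusted exact permutation p were 0.0162 for white fat and muscle, 0.0271 for brown fat and muscle, and 0.0271 for brown and white fat, with n = 6 each. The ratios of G0s2, Hilpda and Abhd5 to Pnpla2 passed between no pair of tissues (9 tests, adjusted exact permutation p of 0.153 to 0.758). In all, 6 of 15 ratio tests passed, each of them for a ratio with Lipe. With libraries of the same number and arm taken as pairs, none did (adjusted p 0.117 for each of the 6); 6 pairs allow no p under 0.0312, and the labels do not say that the numbers pair libraries. The count was 2 without brown fat vehicle 1, 2 or 3 or brown fat quercetin 2. Both ratios between white fat and muscle passed whichever 1 library was left out of the unpaired test.

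**Figure D3:**
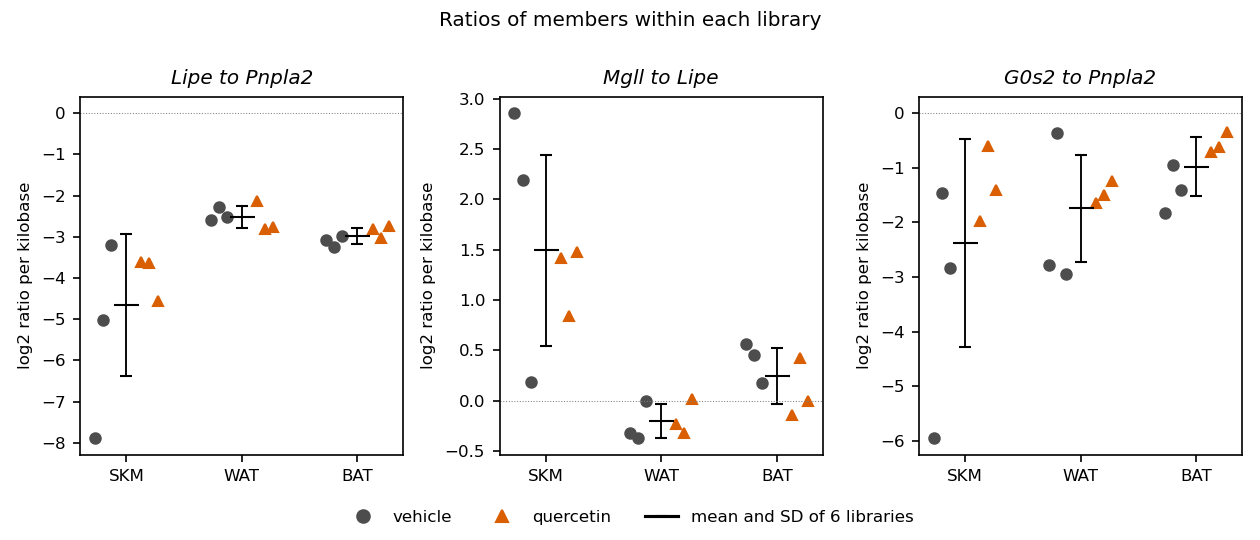
Log2 ratios per kilobase of Lipe to Pnpla2, Mgll to Lipe and G0s2 to Pnpla2 in each library, by tissue and arm (circles vehicle, triangles quercetin), with the mean and SD of the 6 libraries of a tissue in black. By mean, muscle has the lowest Lipe to Pnpla2 and the highest Mgll to Lipe ratio, with muscle vehicle 3 inside the brown fat range for both. In brown fat the 3 quercetin libraries lie above the 3 vehicle libraries for G0s2 to Pnpla2.

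Lipe followed the adipocyte markers of a library also within muscle. Its 2 highest muscle values, 293 CPM in vehicle 3 and 133 CPM in quercetin 2, were in the libraries with adipocyte sums of 5662 and 2261 CPM, and its 2 lowest, 23.3 and 32.7 CPM in vehicle 1 and 2, in those with 51.3 and 71.2 CPM. Pnpla2 did not: it was highest in muscle vehicle 1 (2837 CPM), which had the lowest adipocyte sum. Mgll and Abhd5 too were highest in muscle vehicle 3 (287 and 92.7 CPM) and next in quercetin 2 (204 and 55.8 CPM). Their lowest muscle values were in quercetin 3 for Mgll (114 CPM) and vehicle 2 for Abhd5 (30.0 CPM). Lipe ranged over 12.6-fold among muscle libraries, Mgll over 2.53-fold and Abhd5 over 3.09-fold, while the adipocyte sum ranged over 110-fold.

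In white fat the levels spread widely, and for 4 genes much of that spread went with the adipocyte markers. From white fat vehicle 2 to vehicle 1 the adipocyte sum ranged over 65.4-fold, Pnpla2 over 76.8-fold (97.6 to 7498 CPM), Lipe over 61.6-fold, Mgll over 63.7-fold and Abhd5 over 24.9-fold. Taken relative to the adipocyte sum, the ranges narrowed to 3.80-fold, 3.12-fold, 2.64-fold and 4.15-fold. The inhibitors did not narrow, with 15.2-fold and 15.9-fold for G0s2, and 19.9-fold and 52.0-fold for Hilpda. In brown fat, ranges relative to the sum were wider, at 2.26-fold and 4.70-fold for Pnpla2 and 2.14-fold and 4.43-fold for Lipe. Mgll went from 1.94-fold to 4.24-fold there and Abhd5 from 2.70-fold to 6.56-fold. In muscle only Lipe narrowed (12.6-fold to 8.89-fold), and Mgll widened from 2.53-fold to 56.1-fold. Relative to the adipocyte sum, the median of Pnpla2 was 155% in muscle, 20.6% in white fat and 70.0% in brown fat. In the same order, Lipe had medians of 16.5%, 5.77% and 16.4%, and G0s2 15.2%, 2.05% and 10.1%. Mgll (38.9%, 4.50% and 19.9%) and Abhd5 (13.3%, 1.19% and 3.57%) were lowest in white fat too, while Hilpda was lowest in brown fat (1.57%, 0.453% and 0.297%). In muscle, where the adipocyte sum fell to 51.3 CPM, these percentages ranged widely. They ran from 24.5% to 5525% for Pnpla2 and from 0.0756% to 71.0% for Hilpda. The markers in the sum did not all move alike. Brown fat quercetin 3 had the highest sum of its tissue (10958 CPM) but the lowest Plin1, at 524 CPM against 1167 to 1819 CPM in the others. The percentages therefore depend on the markers chosen, and other sums were not tried. Whether adipocyte content accounts for the differences between tissues was not tested.

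**Figure D4:**
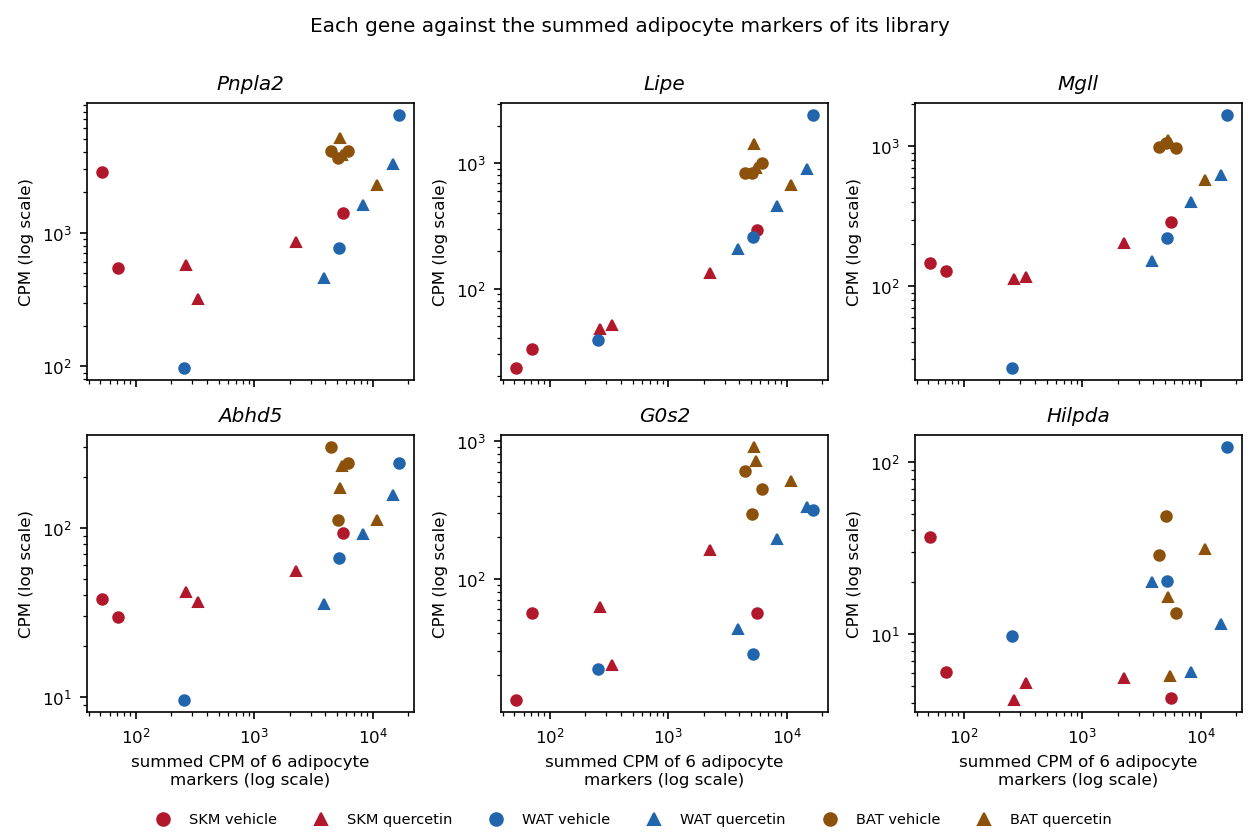
CPM of each gene against the summed CPM of 6 adipocyte markers in the same library (both axes log), coloured by tissue, with circles for vehicle and triangles for quercetin. Lipe is higher at higher marker sums in muscle and white fat alike, but in brown fat the library with the highest sum has the lowest Lipe. Pnpla2 has its highest muscle value at the lowest marker sum, and Hilpda scatters.

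Quercetin was compared with vehicle within each tissue. In muscle no member passed the threshold, beside 0% of the 13562 genes tested with edgeR, and DESeq2 called 0. An unadjusted edgeR p under 0.05 was found for 406 genes (2.99%). Without any effect, a share of about 0.05 would be expected, which is more. The estimates of all 3 lipases were below 0. Pnpla2 stood at 2837, 543 and 1388 CPM in vehicle 1 to 3 and at 321, 849 and 570 CPM in quercetin 1 to 3. The arms overlapped, and the log2 fold change was -1.51 (SE 0.64, 95% interval -2.98 to -0.04; edgeR p 0.0448, adjusted p 0.910). Without vehicle 1 it was -0.77. The 6 adipocyte markers had a median quercetin estimate of -1.06 in muscle, beside 0.57 in white fat and 0.70 in brown fat; that of the muscle fibre markers, of which 9, 5 and 8 were tested, was 0.33, -4.07 and 2.05 in the same order. None of these markers passed, and their part in the members' estimates was not tested.

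Lipe stood at 23.3, 32.7 and 293 CPM in muscle vehicle 1 to 3 and at 50.8, 133 and 47.2 CPM in quercetin 1 to 3. Its estimate of -0.65 turned to 1.42 without vehicle 3, the library with the most adipocyte RNA; that of Mgll turned from -0.42 to 0.03 and that of Abhd5 from -0.31 to 0.35. Of the inhibitors, G0s2 stood at 13.2, 56.5 and 55.8 CPM with vehicle and at 23.5, 160 and 62.1 CPM with quercetin. Its estimate of 0.93 (interval -0.76 to 2.62) was 0.01 without quercetin 2, the library with seminal vesicle and Ucp1 transcripts. Hilpda reached 36.4 CPM in vehicle 1, whereas the other 5 muscle libraries held 4.18 to 6.01 CPM, the lowest of them from 30 counts. Its estimate was -1.69 (interval -3.52 to 0.14), and -0.06 without vehicle 1.

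In white fat no member passed either, beside 0% of 14919 genes with edgeR. Only 122 genes (0.818%) had an unadjusted edgeR p under 0.05, and DESeq2 called 7, none of them a member. Pnpla2 stood at 7498, 97.6 and 760 CPM in vehicle 1 to 3 and at 461, 3278 and 1596 CPM in quercetin 1 to 3, so that the vehicle arm held both the highest and the lowest library. The estimates were -0.69 for Pnpla2 (interval -4.43 to 3.05), -0.84 for Lipe, -0.75 for Mgll and -0.20 for Abhd5. Within flow cell H7H2WDSXX, with 2 libraries in each arm, these 4 turned to 1.22, 1.11, 1.11 and 0.70, and none passed. The other flow cell held 1 white fat library of each arm.

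G0s2 stood at 313, 22.0 and 28.3 CPM in white fat vehicle 1 to 3 and at 42.7, 334 and 196 CPM in quercetin 1 to 3. Its estimate was 0.62 over all libraries, 2.21 within the flow cell and -0.09 without quercetin 2, with no call in any of the 3. Hilpda stood at 121, 9.77 and 20.5 CPM with vehicle and at 20.2, 11.5 and 6.08 CPM with quercetin. Its estimate of -2.07 (interval -4.57 to 0.44) was -0.25 within the flow cell and -0.29 without vehicle 1.

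Brown fat had the narrowest spread, and no member passed there, beside 0% of 13274 genes with edgeR. Only 241 genes (1.82%) had an unadjusted edgeR p under 0.05, and DESeq2 called 2, no member among them. The 95% intervals were -1.03 to 0.87 for Pnpla2, -0.68 to 1.003 for Lipe and -0.96 to 0.67 for Mgll, around estimates of -0.08, 0.16 and -0.15. Brown fat quercetin 3 had the lowest values of all 3 lipases in its tissue (2265, 666 and 573 CPM). G0s2 stood at 293, 605 and 446 CPM with vehicle and at 900, 713 and 513 CPM with quercetin, an estimate of 0.66 (interval -0.23 to 1.55). Hilpda stood at 48.4, 28.9 and 13.3 CPM with vehicle and at 16.4, 5.77 and 31.1 CPM with quercetin, an estimate of -0.74, or -0.22 without vehicle 1. Abhd5 gave -0.34, with 111, 298 and 241 CPM against 172, 231 and 112 CPM.

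The arms overlapped for every member in every tissue, beside 9.25% of genes in muscle, 4.44% in white fat and 6.19% in brown fat whose arms did not overlap. The median estimate of the 6 members was -0.53 in muscle, -0.72 in white fat and -0.11 in brown fat, beside -0.03, -0.01 and 0.05 over all genes. The estimate of G0s2 was above 0 and that of Hilpda below 0 in all 3 tissues, and none of these 6 estimates passed. For Hilpda, vehicle 1 was the highest of 6 libraries in each tissue. The ratio of G0s2 to Pnpla2 in brown fat was 0.282, 0.515 and 0.379 with vehicle and 0.609, 0.647 and 0.785 with quercetin, without overlap. The exact permutation p was 0.1, the smallest that 3 against 3 allow, and 0.6 after adjustment over 15 ratio tests, none of which passed. Tested directly, a difference in quercetin effect between 2 tissues passed for no gene in any of the 3 pairs with edgeR (0%). Between 173 and 231 of 16388 genes (1.06% to 1.41%) had an unadjusted edgeR p under 0.05, and DESeq2 made 2 to 13 calls. For the members these differences ranged from -0.37 (Hilpda, white fat minus muscle) to 1.39 (Pnpla2, brown fat minus muscle, 95% interval -1.79 to 4.56), with an adjusted p of at least 0.9999 for each.

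Around the 6 genes, other parts of the pathway were counted in the same fits, from lists of known function. Between brown fat and muscle, the enzymes that rebuild triglyceride were higher in brown fat in 7 of 9 cases and lower in none. Among them were Gk, glycerol kinase (log2 fold change 5.62, adjusted p 0.000167), Dgat1 (2.98) and Dgat2 (3.57), which add the last fatty acid, and Agpat2 (4.75). Other lipid hydrolases passed as higher in 7 of 10 and lower in 1; Ddhd2 (3.61), Pnpla3 (4.22), the endothelial lipase Lipg (3.26) and the lysosomal lipase Lipa (2.46) were higher. Droplet coat genes passed as higher in 4 of 7, Plin2 (3.75), Cidea (6.72), Plin3 (1.64) and Plin1 (4.01). Carriers of fatty acids and glycerol passed in 3 of 7, Fabp5 (2.87), Aqp7 (2.81) and Fabp4 (3.02).

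The signals upstream of the lipases were mixed in that comparison. Hormone and protein kinase A genes passed as higher in 8 of 23 and lower in 2, with the prostaglandin receptor Ptger3 (4.66), the adrenergic receptor Adrb1 (5.42) and the adenylate cyclase Adcy3 (4.41) higher and the kinase subunit Prkar2a (-1.88) lower. Insulin signalling genes passed in 1 of 9 each way, Pde3b (3.53), which breaks down cyclic AMP, and Pik3ca (-0.64). Transcription factors passed as higher in 6 of 13, among them Pparg (3.62), Irf4 (2.79), Srebf1 (1.90) and Hif1a (0.85). Over all genes, 13.9% passed as higher and 13.3% as lower.

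Between brown and white fat, the rebuilding enzymes passed as higher in brown fat in 4 of 9, Gk (5.004), Dgat2 (2.84), Gpam (2.89) and Lpin1 (1.69), and droplet coat genes in 4 of 7, Cidea (6.55), Plin3 (2.02), Plin5 (3.34) and Plin2 (1.998). Hydrolases passed in 3 of 10, transcription factors in 3 of 13, hormone signalling genes in 5 of 23 with 3 lower, insulin signalling genes in 1 of 9, and 1 of 7 carriers was lower, the water and glycerol channel Aqp3 (-5.98). Between white fat and muscle, the counts higher and lower in white fat were 4 and 1 of 9 for rebuilding enzymes, 3 and 1 of 10 for hydrolases, 3 and 0 of 7 for droplet coats, 3 and 0 of 7 for carriers, 6 and 4 of 23 for hormone signalling, 2 and 2 of 9 for insulin signalling and 6 and 3 of 13 for transcription factors. Over all genes, 28.6% passed as higher in white fat and 21.7% as lower; between brown and white fat the shares were 18.3% and 22%.

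With quercetin no gene of these lists passed in any tissue. In muscle, the smallest p among the transcription factors was that of Foxo1, which is known to raise Pnpla2 transcription: it stood at 219, 95.8 and 99.5 CPM with vehicle and at 56.5, 52.2 and 61.7 CPM with quercetin, without overlap (log2 fold change -1.33, edgeR p 0.00928, adjusted p 0.910). Irs1, an adaptor of the insulin receptor, stood at 8.62, 31.5 and 31.0 CPM with vehicle and at 60.4, 87.8 and 51.8 CPM with quercetin (1.45, adjusted p 0.910). In white fat, Pnpla3, a lipase related to Pnpla2, stood at 3.49, 3.67 and 14.5 CPM with vehicle and at 60.0, 107 and 195 CPM with quercetin (4.04, edgeR p 0.00241, adjusted p 0.9998). Ptger3, whose Gi signal restrains lipolysis, stood at 1.199, 1.75 and 2.38 CPM against 8.74, 8.68 and 15.4 CPM there (2.60, adjusted p 0.9998). The arms did not overlap for these 4 genes, which are named by their p. Arms without overlap were found for 6 of 72 list genes tested in muscle, 6 of 77 in white fat and 3 of 76 in brown fat. The shares over all genes were 9.25%, 4.44% and 6.19%. The muscle count is near that background, and no count was tested against it.

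Across the 18 libraries the levels of 5 members moved together, and Hilpda stood apart. Pearson's r of log2 CPM was 0.74 to 0.97 between Pnpla2, Lipe, Mgll, Abhd5 and G0s2, and 0.22 to 0.52 between Hilpda and each of them. With tissue means subtracted the ranges were 0.58 to 0.94 and -0.14 to 0.46. Among 16367 genes, the closest to Lipe was Rab34 (0.98), to Mgll Aifm2 (0.97), to Abhd5 Nrbp2 (0.96), to G0s2 Tmem53 (0.97) and to Hilpda Irak2 (0.89). Pparg was among the 3 closest for both Mgll (0.97) and Abhd5 (0.96). With tissue means subtracted the closest were Por for Pnpla2 (0.97), Rab34 for Lipe (0.96), Slc27a1 for Mgll (0.96), Svep1 for Abhd5 (0.96), Tmem53 for G0s2 (0.93) and Zfand5 for Hilpda (0.95). These r describe libraries that share tissues and differ in adipocyte content, and they are given without a test.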

How the data were processed

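RNA from muscle, white fat and brown fat was prepared with TRIzol, DNase treatment and a NEBNext Ultra kit, per the labels' protocols. The deposited values are raw read counts per gene, one file per library; the submitters' processing notes name HISAT2, HTSeq, DESeq2 and mm10, without versions, and neither the strand setting nor the annotation release of the counting is stated in the sources used here. The deposited summary lines (2.53% to 9.11% no feature, 6.47% to 9.84% ambiguous) were left out of library sizes. Totals ran from 8436308 to 12311345 counts, and Hilpda, the lowest member, held as few as 30.

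Counts were tested with edgeR 4.0.16 (R 4.3.3; quasi-likelihood F test, two-sided, TMM, filterByExpr with a minimum count of 10 and total of 15, Benjamini-Hochberg over all genes tested, threshold 0.05). Quercetin was tested within the 6 libraries of a tissue; tissues and differences of the quercetin effect were tested in a fit of all 18. CPM used TMM over all 18 libraries, and RPKM divided CPM by the length of the exons joined from GENCODE vM21. Ratios used counts plus 0.5 per kilobase, with exact permutation. Alternatives were DESeq2 1.42.0, limma 3.58.1 voom with quality weights, RLE scaling, no filter, one arm, one flow cell, a replicate block, a ratio pseudocount of 5, leaving out each library, and leaving out the 4 with another tissue's transcripts (muscle vehicle 3 and quercetin 2, white fat vehicle 2, brown fat quercetin 3). White fat of flow cell H7GKJDSXX alone was added after seeing the data. The fits were tested on simulated data. Named genes were the 6 members, the 4 genes of smallest p in each list and the 3 closest by correlation to each member; Pearson's r used log2 CPM with a prior count of 2. Members and lists were chosen with earlier results of these data known. Proteins were not used here. The gene closest to Pnpla2 over the 18 libraries is not reported here.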

Additional observations from a re-analysis of the deposited data

Results flagged for a closer look

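Of 33 sets of 6 libraries (a member's CPM or a log2 ratio in 1 tissue), 7 held a library far from the rest. Chance gives about 1 in 20 where values are normally distributed, which CPM need not be: of the 6 found on CPM, 2 were as far on log2 CPM (Hilpda in muscle and Mgll in brown fat). In white fat vehicle 1, Lipe stood at 2410 CPM (the other 5 at 39.1 to 906), Mgll at 1664 CPM (26.1 to 627) and Hilpda at 121 CPM (6.08 to 20.5); its adipocyte marker sum of 16753 CPM was the highest of that tissue. In muscle vehicle 1, Hilpda stood at 36.4 CPM (4.18 to 6.01) and the log2 ratio of Abhd5 to Pnpla2 at -7.20 (-5.16 to -4.12). In muscle quercetin 2, the library with seminal vesicle and Ucp1 transcripts, G0s2 stood at 160 CPM (13.2 to 62.1). In brown fat quercetin 3, the library with muscle transcripts, Mgll stood at 573 CPM (980 to 1114). The part of those transcripts in these values was not tested.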

How the results depend on the processing

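With quercetin no member passed in any tissue under any alternative run. The count of all genes was 0 in each tissue with edgeR, 32 in muscle with no filter on low counts, and 7 in white fat and 2 in brown fat with DESeq2; leaving out 1 library gave 0 in muscle and white fat and 0 to 1 in brown fat. DESeq2 gave 13, 2 and 7 genes for the differences of the quercetin effect (brown minus white fat, brown fat minus muscle, white fat minus muscle), and edgeR gave 0 without any 1 library. With voom and quality weights the quercetin estimates turned to 0.38 for Lipe and 0.074 for Abhd5 in muscle, to 1.24, 1.03, 1.06 and 0.69 for Pnpla2, Lipe, Mgll and Abhd5 in white fat, and to 0.088 and 0.046 for Pnpla2 and Mgll in brown fat. Within flow cell H7H2WDSXX those 4 white fat estimates were 1.22, 1.11, 1.11 and 0.70.

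Between brown and white fat the genes past the threshold numbered 6604, and 11053 with voom, 3106 in vehicle and 2997 in quercetin libraries alone, 1357 with white fat of flow cell H7GKJDSXX, and 5383 to 7917 without 1 library; members numbered 1, and 5 with voom, 0 in either arm alone, 5 within H7H2WDSXX, 0 without the 4 libraries, 0 with white fat of H7GKJDSXX, and 0 to 5 without 1 library. Lipe turned to -0.018 in vehicle libraries and -0.65 with white fat of H7GKJDSXX, where Pnpla2, Mgll and Abhd5 turned to -0.38, -0.095 and -0.017. Hilpda (-0.12) turned to 0.34 with voom, 0.50 in quercetin libraries and 0.73 within H7H2WDSXX. Between brown fat and muscle the genes numbered 4461, and 7451 with voom, 1689 and 1703 in vehicle and quercetin libraries alone, and 3463 to 5097 without 1 library; members numbered 4, and 5 with DESeq2, 6 with voom, 6 with the replicate block, 1 and 0 in the arms alone, and 3 to 5 without 1 library. Between white fat and muscle the genes numbered 8251, and 5076 and 4587 in the arms alone, 4038 with white fat of H7GKJDSXX, and 7194 to 8843 without 1 library; members numbered 1, and 3 with DESeq2, 2 with voom, 2 with no filter, 0 in either arm alone, 2 with the replicate block, 0 within H7H2WDSXX, 4 without the 4 libraries, 5 with white fat of H7GKJDSXX, and 0 to 4 without 1 library. Pnpla2, Abhd5 and G0s2 turned to -0.57, -0.035 and -0.20 within H7H2WDSXX. Of the ratios, 6 of 15 passed between tissues, and 2 to 7 without 1 library. Without the 4 libraries the quercetin ratios of Hilpda to Pnpla2 in muscle, Abhd5 to Pnpla2 in white fat and Mgll to Lipe in white fat turned to -0.12, 0.18 and -0.015. Fewer samples enter the fits of 1 arm or flow cell; the cause of the other changes was not tested.

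The replicate numbers were not shown to pair the libraries: deviations of same-numbered libraries of an arm in different tissues correlated at -0.14 to 0.30 (18 pairs, median 0.12, 11 over 0.1), those of different numbers at -0.30 to 0.14 (36 pairs, median -0.026, 4 over 0.1), and those of the 2 arms of a tissue at -0.70 to 0.27 (9 pairs). The sample titles repeat the same arm and number in each tissue, without saying that these name an animal. The first comparison is a hint from the data in that direction. With the replicate block in edgeR, Hilpda passed between brown fat and muscle (1.63, adjusted p 0.0257), as did Pnpla2 (2.45, adjusted p 0.0273). No ratio between tissues passed under the block (0 of 15). There 6 pairs allow no exact p under 0.0312, which leaves little room after adjustment over 15 tests, so this count decides nothing. Under that block the quercetin estimates turned to 0.31 for Lipe in muscle and to 0.92, 0.70, 0.74 and 0.51 for Pnpla2, Lipe, Mgll and Abhd5 in white fat; Hilpda turned to 0.15 between brown and white fat. Differences of the quercetin effect turned to -0.70 and -0.32 for Pnpla2 and Mgll (brown minus white fat), 0.34 for G0s2 (brown fat minus muscle), and 0.39, 0.58 and 0.26 for Lipe, Mgll and G0s2 (white fat minus muscle).

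Leaving out 1 library at a time turned the sign of estimates that had not passed. The quercetin estimates in muscle then ran from -1.28 to 1.42 for Lipe, -0.73 to 0.032 for Mgll and -0.59 to 0.35 for Abhd5. The quercetin estimates in white fat then ran from -1.51 to 2.06 for Pnpla2, -1.53 to 1.83 for Lipe, -1.31 to 1.67 for Mgll, -0.80 to 1.33 for Abhd5 and -0.087 to 2.96 for G0s2. The quercetin estimates in brown fat then ran from -0.35 to 0.16 for Pnpla2, -0.16 to 0.36 for Lipe and -0.30 to 0.079 for Mgll. The quercetin effect in brown fat minus that in white fat ran from -2.12 to 1.43 for Pnpla2, -1.65 to 1.67 for Lipe, -1.81 to 1.19 for Mgll, -1.65 to 0.45 for Abhd5, -2.26 to 0.75 for G0s2 and -0.50 to 1.85 for Hilpda. The quercetin effect in brown fat minus that in muscle ran from -1.29 to 1.42 for Lipe, -0.22 to 0.56 for Mgll, -0.73 to 0.23 for Abhd5, -0.75 to 0.63 for G0s2 and -0.73 to 1.498 for Hilpda. The quercetin effect in white fat minus that in muscle ran from -2.24 to 2.42 for Lipe, -0.91 to 2.04 for Mgll, -0.54 to 1.58 for Abhd5, -1.005 to 1.96 for G0s2 and -1.96 to 1.37 for Hilpda. Between tissues, -0.46 to 0.75 for Hilpda (brown minus white fat) and -0.14 to 1.57 for Pnpla2 (white fat minus muscle) were the ranges. Log2 ratios ran from -0.085 to 0.98 for G0s2 to Pnpla2 (white fat minus muscle), -0.58 to 0.040 for Abhd5 to Pnpla2 (brown fat minus muscle) and -0.22 to 0.40 for Abhd5 to Pnpla2 (white fat minus muscle), and from -0.36 to 0.66 for Hilpda to Pnpla2 (quercetin in muscle), -0.64 to 0.18 for Abhd5 to Pnpla2 (quercetin in white fat), -0.50 to 0.13 for Abhd5 to Pnpla2 (quercetin in brown fat), -0.33 to 0.023 for Lipe to Pnpla2 (quercetin in white fat), -1.28 to 0.057 for Mgll to Lipe (quercetin in muscle) and -0.045 to 0.17 for Mgll to Lipe (quercetin in white fat).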

Other observations

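Vehicle library 1 of each tissue, where Hilpda was highest, also had the lowest Pnpla3 of its tissue. Pnpla3 stood at 2.56 CPM in muscle vehicle 1 (the other 5 muscle libraries at 6.98 to 30.0 CPM), at 3.49 CPM in white fat vehicle 1 (3.67 to 195 CPM) and at 3.61 CPM in brown fat vehicle 1 (142 to 872 CPM). Adrb3, the beta-adrenergic receptor that starts lipolysis in fat, was lowest there too, but by a wide margin only in brown fat. It stood at 3.91 CPM in brown fat vehicle 1, where the other 5 brown fat libraries held 103 to 819 CPM. In white fat it was 8.18 CPM in vehicle 1 and 9.01 CPM in vehicle 2. In muscle it was near the floor, at 0.233 CPM in vehicle 1 (2 counts), 0.835 CPM in quercetin 3 (6 counts) and 0.962 CPM in vehicle 2 (8 counts). Irs2 was highest in vehicle 1 of muscle (404 CPM) and white fat (296 CPM), but not of brown fat (121 CPM, against 209 CPM in vehicle 2). These genes were picked after their values were seen, and no test was made.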
